A study of Mus musculus with 20 samples.

Results

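The genes described here encode classical MHC class I molecules, the peptide supply that loads them, the immunoproteasome, and the regulator Nlrc5. They were taken from the counts by symbol, and all 10 (H2-K1, H2-D1, B2m, Tap1, Tap2, Tapbp, Psmb8, Psmb9, Psmb10, and Nlrc5) were found among 15956 listed genes. Messenger RNA was measured in left ventricular heart tissue from 20 male mice, 5 on each of 4 diets. NP mice received normal protein, LP mice low protein, HF mice a high-fat diet with normal protein, and HF+LP mice a high-fat diet with low protein. Casein was the protein source of every diet, and the labels name no genetic change and no treatment besides diet. The labels give 18 months as the age of every mouse, whereas the study's methods place tissue collection at a younger age, and the strain is not given in the sources used here. HF compared with NP addresses a change of fat at normal protein, and HF+LP compared with HF a lowering of protein during a high-fat diet. Carbohydrate changed along with these: by the study's diet table, HF had less than NP, and each low-protein diet had more than its normal-protein counterpart. The parts of fat, protein, and carbohydrate cannot be told apart here, and fat effect below stands for the whole diet difference.

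Class I molecules present peptides from inside the cell to CD8 T cells. The heavy chains (H2-K1, H2-D1) pair with the light chain beta-2-microglobulin (B2m). Peptides are cut by the proteasome, carried into the endoplasmic reticulum by the Tap1 and Tap2 transporter, and loaded with the help of tapasin (Tapbp). Under interferon, the catalytic subunits Psmb8, Psmb9, and Psmb10 replace the constitutive subunits Psmb5, Psmb6, and Psmb7 in newly made proteasomes. Nlrc5 is a transactivator of class I promoters, where it works with factors that bind a conserved set of short elements ending in an inverted CCAAT box. Cardiomyocytes are known for low class I levels at rest, whereas endothelial cells and macrophages of the heart express more.

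Of the 10 genes, 7 lie on chromosome 17, Psmb10 and Nlrc5 lie on chromosome 8, and B2m lies on chromosome 2 (GENCODE M21, GRCm38). All are protein coding. H2-K1 spans chr17:33996017-34000347 on the minus strand, H2-D1 spans chr17:35262730-35267499 on the plus strand, and B2m spans chr2:122147686-122153083 on the plus strand. RefSeq promoter windows (GRCm38.p6, 250 bases before to 50 after the start) were at hand for 8 of the 10 genes, all but Tap2 and Nlrc5. These starts are those of RefSeq, and the bases before the H2-D1 start lie inside the GENCODE span given above. The 250 bases before the start are shown for both heavy chains and B2m, because their promoters hold the same pair of short elements at the same distance. Each is written 5′ to 3′ along the gene's strand, and capitals mark matches on either strand to TGACG, to the CCAAT box, to the gamma activated site (TTC and GAA with 3 bases between), or to the interferon response element (a pair of GAAA with 2 bases between).
H2-K1 (chr17:34000348-34000597, minus strand): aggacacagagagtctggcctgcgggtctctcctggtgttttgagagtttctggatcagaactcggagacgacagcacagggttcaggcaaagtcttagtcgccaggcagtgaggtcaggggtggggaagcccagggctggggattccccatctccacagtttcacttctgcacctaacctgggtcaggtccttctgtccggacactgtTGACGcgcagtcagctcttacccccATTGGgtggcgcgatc
H2-D1 (chr17:35262844-35263093, plus strand): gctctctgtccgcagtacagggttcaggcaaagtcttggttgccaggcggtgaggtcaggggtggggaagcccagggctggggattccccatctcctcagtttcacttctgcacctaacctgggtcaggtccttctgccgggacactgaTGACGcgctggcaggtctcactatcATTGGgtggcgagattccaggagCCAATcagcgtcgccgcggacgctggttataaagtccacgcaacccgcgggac
B2m (chr2:122147437-122147686, plus strand): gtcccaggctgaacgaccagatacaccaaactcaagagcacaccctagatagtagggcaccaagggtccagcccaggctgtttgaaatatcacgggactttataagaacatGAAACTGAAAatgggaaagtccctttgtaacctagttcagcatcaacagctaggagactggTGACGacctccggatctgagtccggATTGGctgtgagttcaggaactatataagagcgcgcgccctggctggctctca

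In all 3 sequences TGACG was followed, after 20 bases, by ATTGG, the inverted CCAAT. Counted from 1 at the 5′ end of each sequence, TGACG began at base 210 of H2-K1, 150 of H2-D1, and 173 of B2m, and ATTGG began 25 bases further on in each. This spacing was looked for after the windows had been seen. It occurred on either strand in 31 of 32851 windows of all genes (0.0944%), which include these 3 and no other of the 8 genes with a window. The single elements were common: CCAAT was found in 37.4% of all windows and in 6 of the 8 genes, and TGACG was found in 20.8% and in 5 of the 8. An exact match to the interferon response element as written above was present in 3.44% of all windows and, among the 8, in B2m (GAAACTGAAA, bases 112 to 121). Variants of this element that differ from those letters were not searched. The absence of a match in the heavy chain windows therefore does not show that they lack such an element. The gamma activated site was present in 8.3% of windows and, among the 8, in Psmb8 (TTCCCAGAA, bases 154 to 162 of its window). The Tap1 and Psmb9 windows run in opposite directions and share 275 bases (chr17:34187306-34187580). A match of letters describes these windows only and does not show that a factor binds there.

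Counts per mouse summed to between 12559607 and 23331907. QuantSeq libraries are read from the 3′ end of transcripts, so counts do not scale with the length of the transcript. Cardiomyocyte markers (Myh6, Tnnt2, Actc1, Tnni3, Ryr2, Myl2) were abundant in every mouse, with summed normalized counts of 437700 to 709600. Several mice stood apart by markers of other cells. In LP mouse 20, T and NK cell markers summed to 5421 normalized counts and B cell markers to 2754, against 59.9 to 116 for T and NK cell markers in the other LP mice. In LP mouse 13, the atrial markers summed to 244400 and the adipocyte markers to 4368, the highest of all mice. Atrial and adipocyte markers spread widely in every diet. HF mouse 1 had the next highest atrial sum, 204100, and HF mouse 3 had an atrial sum of 73800 and an adipocyte sum of 1043, against 1885 to 3246 and 7.08 to 13.1 in HF mice 2, 4, and 5. The atrial sum was also high in LP mouse 15 (87620) and in HF+LP mouse 3 (86710), against 977 to 21310 in the other HF+LP mice. Results that use the LP group are therefore given with and without LP mice 13 and 20, and the main HF results with and without HF mouse 1 or HF mouse 3. Tap1 and Psmb9 overlap each other, 6 others of the 10 genes overlap an annotated neighbor, and whether counting used strand is not given in the sources used here. H2-K1 and H2-D1 are also near-identical over stretches to other H2 genes, so reads may have been split between them.

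Across the diets, the highest group mean was in HF for 8 of the 10 genes and in LP for Tap2 and Psmb9. The lowest was in HF+LP for 8 and in NP for Tapbp and Psmb10. Without LP mice 13 and 20, the highest mean was in HF for all 10 genes, and the lowest was in LP for 6 (H2-K1, H2-D1, B2m, Tap2, Tapbp, Psmb8), in HF+LP for 3, and in NP for Psmb10. In no comparison did any of the 10 genes pass the test used for calls (edgeR quasi-likelihood test, adjusted p under 0.01, mean normalized count over 50). Nlrc5, with a mean of 34.6 normalized counts, could not have been called, which leaves 9 that could. The differences below are thus estimates with their errors.

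**Figure D1:**
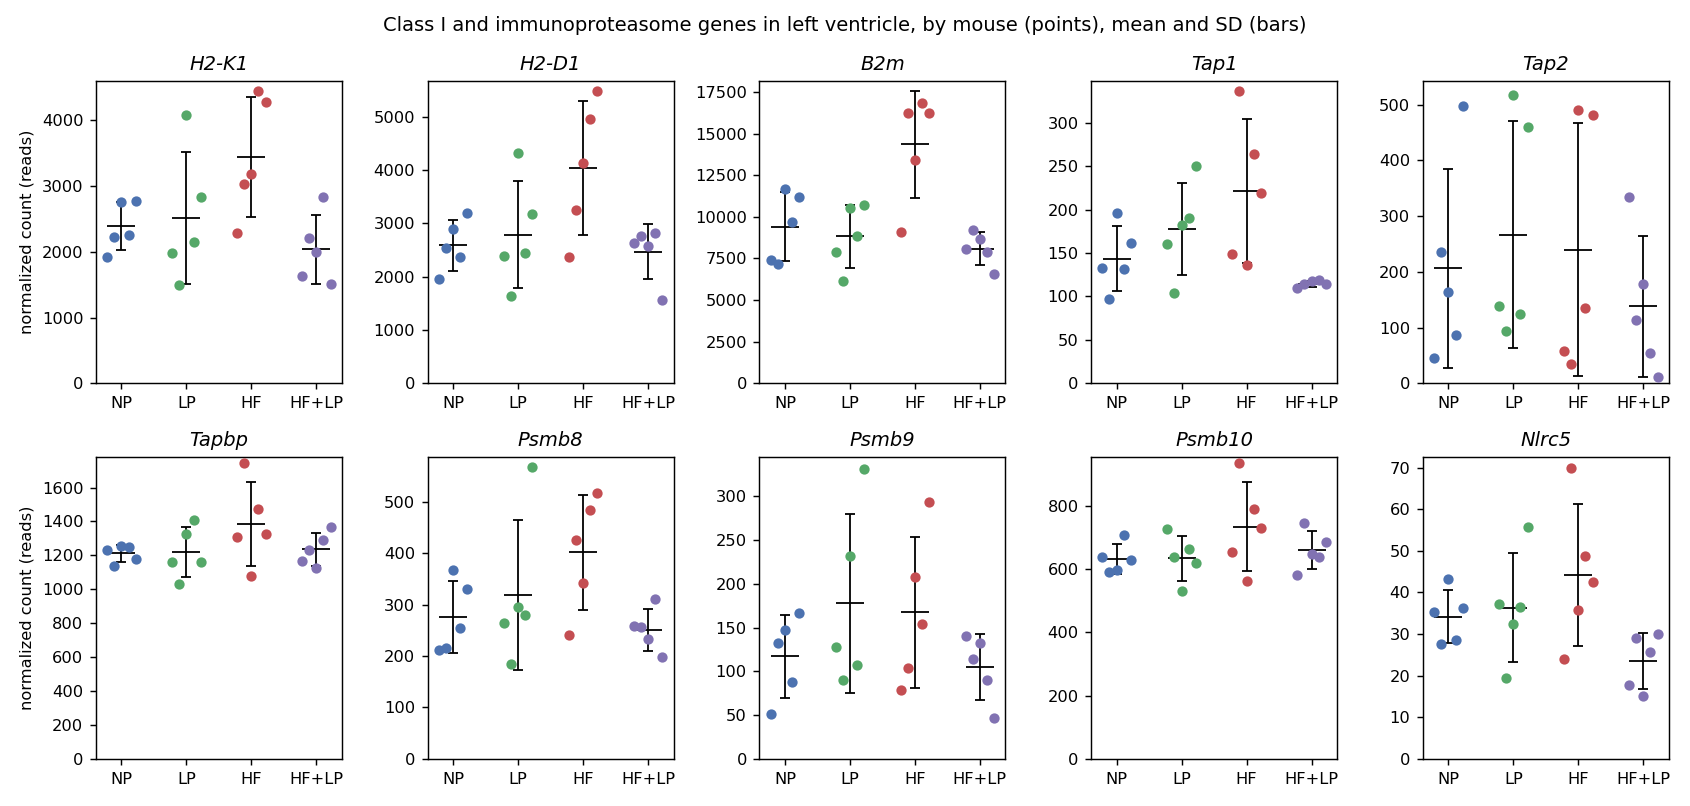
Normalized count (reads, y axis from 0) of each of the 10 genes in every mouse, by diet group (x axis). Points are mice, and bars show the mean and SD of 5 mice. The HF points of B2m reach 16814 and 4 of 5 lie above all NP and HF+LP points, whereas Tap2 spreads from 10.4 to 517 without following the diets.

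B2m, the light chain shared by all class I molecules, was the most abundant of the 10. In HF mice 1 to 5 it had 9113, 16254, 13393, 16814, and 16228 normalized counts. In NP mice 3, 4, 5, 6, and 8 it had 7422, 7142.5, 11643, 9657, and 11198. All HF mice except mouse 1 lay above every NP mouse. The HF+LP mice 1 to 5 had 8078, 9218, 8674, 7905, and 6574, close together and, apart from an overlap with HF mouse 1, below HF. The LP mice 2, 5, 13, 15, and 20 had 7882, 6153, 10509, 8855, and 10679, within the span of NP except for mouse 5, which was lower. The HF mean was 14360 ± 3224, against 9412 ± 2082 for NP, 8090 ± 993 for HF+LP, and 8816 ± 1891 for LP (SD, n = 5 each).

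The heavy chain H2-K1 had 2282, 3026, 3186, 4452, and 4277 normalized counts in HF mice 1 to 5, against 1929, 2232, 2754.5, 2262, and 2779.5 in NP mice 3, 4, 5, 6, and 8. In HF+LP mice 1 to 5 it had 1635, 2212, 2004, 2830.4, and 1506. HF mouse 1 again lay among the NP mice, and all HF+LP mice but mouse 4 had fewer counts than any HF mouse. H2-D1, the other heavy chain, had 2368, 3259.8, 4129, 4969.7, and 5478 in the HF mice in the same order, and 2630.5, 2772, 2577, 2815, and 1567 in HF+LP. In NP it had 1958, 2535, 2886.5, 2369.7, and 3187.5. HF and HF+LP overlapped for H2-D1 because HF mouse 1 was lower than 4 of the HF+LP mice. In LP, mouse 13 was the highest for both chains (4086 for H2-K1, 4314 for H2-D1) and mouse 5 the lowest (1491 and 1645.5).

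The transporter subunit Tap1 had 148.5, 336, 136, 265, and 219.8 normalized counts in HF mice 1 to 5. In HF+LP mice 1 to 5 it had 109.6, 114, 117, 119, and 114, a narrow band with a highest to lowest ratio of 1.08. Every HF+LP mouse had less Tap1 than every HF mouse, the only one of the 10 genes for which these groups did not overlap, against 0.608% of all genes tested with HF+LP wholly below HF. NP mice 3, 4, 5, 6, and 8 had 132, 96.8, 196, 131, and 162, and LP mice 2, 5, 13, 15, and 20 had 161, 104, 183, 191, and 250.3. Both of these groups overlapped HF.

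The other transporter subunit, Tap2, spread within every diet. In NP mice 3, 4, 5, 6, and 8 it had 45.3, 236, 163, 87.3, and 498 normalized counts, and in LP mice 2, 5, 13, 15, and 20 it had 138, 94.1, 517, 124, and 459.5. HF mice 1 to 5 had 58.4, 34.3, 491, 135, and 481, and HF+LP mice 1 to 5 had 335, 113, 178, 53.8, and 10.4. The highest mouse had 32.3 times the lowest in HF+LP, 14.3 times in HF, 11 times in NP, and 5.5 times in LP. For the other 9 genes that ratio did not exceed 3.73 in any diet. HF mouse 2 had the highest Tap1 of all mice and, within HF, the lowest Tap2.

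Psmb8, the inducible chymotrypsin-like subunit, had 241, 426, 343, 483, and 517 normalized counts in HF mice 1 to 5, and 259, 256, 234, 310.3, and 198 in HF+LP mice 1 to 5. NP mice 3, 4, 5, 6, and 8 had 212, 215, 367, 254, and 330.05, so that 3 HF mice lay above all NP mice. In LP, mouse 20 had 567.7, more than any other mouse, and the rest had 184 to 296. Psmb9, the inducible subunit that replaces Psmb6, varied more, with 78.7 to 294 in HF, 46.7 to 141 in HF+LP, 50.8 to 166 in NP, and 90.0 to 331 in LP, where mouse 20 was again the highest. Psmb10, the inducible trypsin-like subunit, and tapasin varied least: Psmb10 lay between 531 and 935 and Tapbp between 1033 and 1746 over all mice. The HF means of 734 ± 141 for Psmb10 and 1386 ± 246 for Tapbp stood against NP means of 632 ± 47.1 and 1212 ± 50.3 (SD, n = 5).

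Nlrc5 was the scarcest of the 10, with 24.1, 69.9, 35.9, 48.7, and 42.4 normalized counts in HF mice 1 to 5 and 17.7, 29.1, 15.1, 25.8, and 30.1 in HF+LP mice 1 to 5. The NP mice had 27.5 to 43.1 and the LP mice 19.4 to 55.85. HF mouse 1 fell within the HF+LP range, and the other HF mice lay above it.

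**Figure D2:**
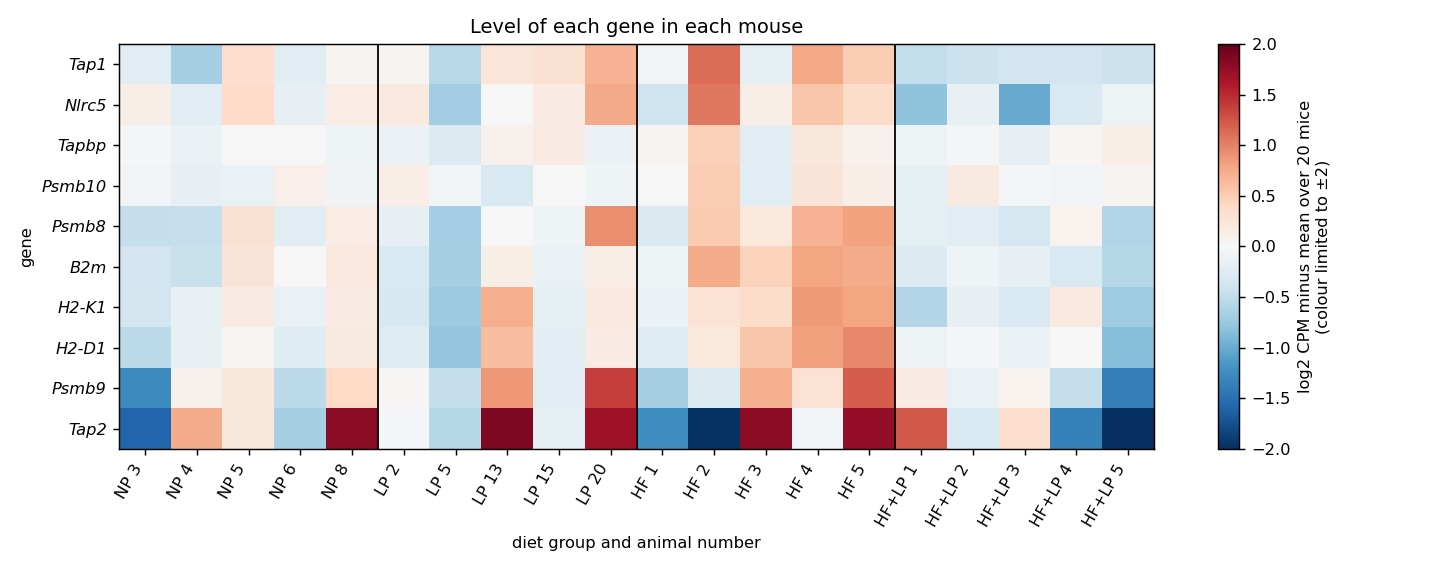
Level of each gene (rows) in each mouse (columns, by diet and animal number) as log2 CPM minus the gene's mean over 20 mice, with color limited to ±2. HF mice 4 and 5 are high for the heavy chains, B2m, and Psmb8, HF mouse 1 is not, and the Tap2 row varies within each diet.

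High fat at normal protein was compared first. All 10 genes had higher estimates in HF than in NP, with a median log2 fold change of 0.53 against 0 for all genes tested, of which 49.8% had a positive estimate. None of the 10 was called by edgeR or DESeq2, where edgeR called 0.264% of the 13991 genes tested and DESeq2 called 158 of the 14289 genes it tested, 67 of them (0.469%) higher. At an unadjusted p under 0.05, 5 of the 10 were higher (H2-K1, H2-D1, B2m, Tap1, Psmb8), against 5.17% of all genes (13.1% in either direction). DESeq2 placed the same 5 below that limit, against 5.77% of all genes in that direction. B2m had the smallest p, with a log2 fold change of 0.61 (SE 0.18), a 1.52-fold difference and an adjusted p of 0.107. The estimates were 0.64 (SE 0.24) for H2-D1, 0.52 (SE 0.24) for H2-K1, 0.62 (SE 0.24) for Tap1, and 0.54 (SE 0.25) for Psmb8, with adjusted p-values of 0.23 to 0.365.

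For Psmb10 (0.21), Tapbp (0.19), Nlrc5 (0.37), and Psmb9 (0.53) the 95% intervals of the log2 fold change between HF and NP included 0. The interval of Tap2 ran from −1.39 to 1.86, so that its direction was not resolved. The groups overlapped for each of the 10 genes, whereas 2.02% of all genes had every HF mouse above every NP mouse. The number of the 10 genes with an unadjusted p under 0.05 depended on single mice: it was 2 without NP mouse 4 or HF mouse 5, 3 without NP mouse 3, NP mouse 6, HF mouse 2, or HF mouse 4, 4 without HF+LP mouse 1, and 7 without HF mouse 3 or HF+LP mouse 3, when Tapbp and Psmb10 were added. It was 5 without any one of the other mice. The share of all genes at that limit is given here only for fits with all mice, not for those with mice left out. Without HF mouse 1 the median log2 fold change was 0.66, and none was called, with B2m at 0.73 (adjusted p = 0.0379). Without HF mouse 3 the median was 0.50, and none was called, with B2m at 0.63 (adjusted p = 0.148). The part of atrial and adipose tissue was not tested.

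Markers of several cell types differed along with this comparison. The 15 macrophage and monocyte genes, all listed, summed to 8308 to 10860 normalized counts in HF (median 10120), 6175 to 7971 in NP (median 7330), and 6247 to 8574 in HF+LP (median 7880). All 15 had higher estimates in HF than in NP, 9 of them at an unadjusted p under 0.05, and all 15 had lower estimates in HF+LP than in HF, 3 of them at that limit. The 6 cardiomyocyte markers went the other way: their sums were 468000 to 585600 in HF, wholly below the 595100 to 709600 of NP, and 458400 to 689600 in HF+LP. All 6 had lower estimates in HF than in NP, 3 of them at an unadjusted p under 0.05 (Myh6, Tnnt2, Ryr2), led by the heavy myosin chain Myh6 with −0.70 (SE 0.13, adjusted p = 0.0124), and all 6 had higher estimates in HF+LP than in HF, none at that limit. The 5 fibroblast markers had higher estimates in HF than in NP and lower ones in HF+LP than in HF, with 0 and 1 of them at that limit and sums of 16140 to 20820 in HF, 14790 to 18190 in NP, and 13750 to 17320 in HF+LP. The 6 endothelial markers summed to 9545 to 11620 in HF (median 11040), 8631 to 10070 in NP (median 8918), and 8501 to 12490 in HF+LP (median 10700). Of them, 5 had higher estimates in HF than in NP, none at that limit, and 4 had lower estimates in HF+LP than in HF, 1 of them at that limit (Pecam1 with −0.24). The 4 atrial markers had higher estimates in HF than in NP (median 1.31) and lower ones in HF+LP than in HF (−1.36), and the 3 adipocyte markers had 1 higher and 2 lower estimates in HF than in NP (median −0.17) and lower ones in HF+LP than in HF (−2.20), none of them at that limit. T and NK cell markers had low sums, at 35.3 to 68.3 in NP, 29.2 to 79.6 in HF, and 41.8 to 115.5 in HF+LP. The 4 of them tested had higher estimates in HF than in NP (median 0.65). In HF+LP against HF, 3 were higher and 1 lower (0.27). Of the 4 B cell markers tested, 3 were higher and 1 lower in HF than in NP (0.39). In HF+LP against HF, 2 were higher and 2 lower (0.15). None of these lymphocyte markers had an unadjusted p under 0.05 in either comparison. In bulk tissue, fewer cells of a type and less RNA per cell cannot be told apart, and the part of these cell types in the class I estimates was not tested.

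**Figure D3:**
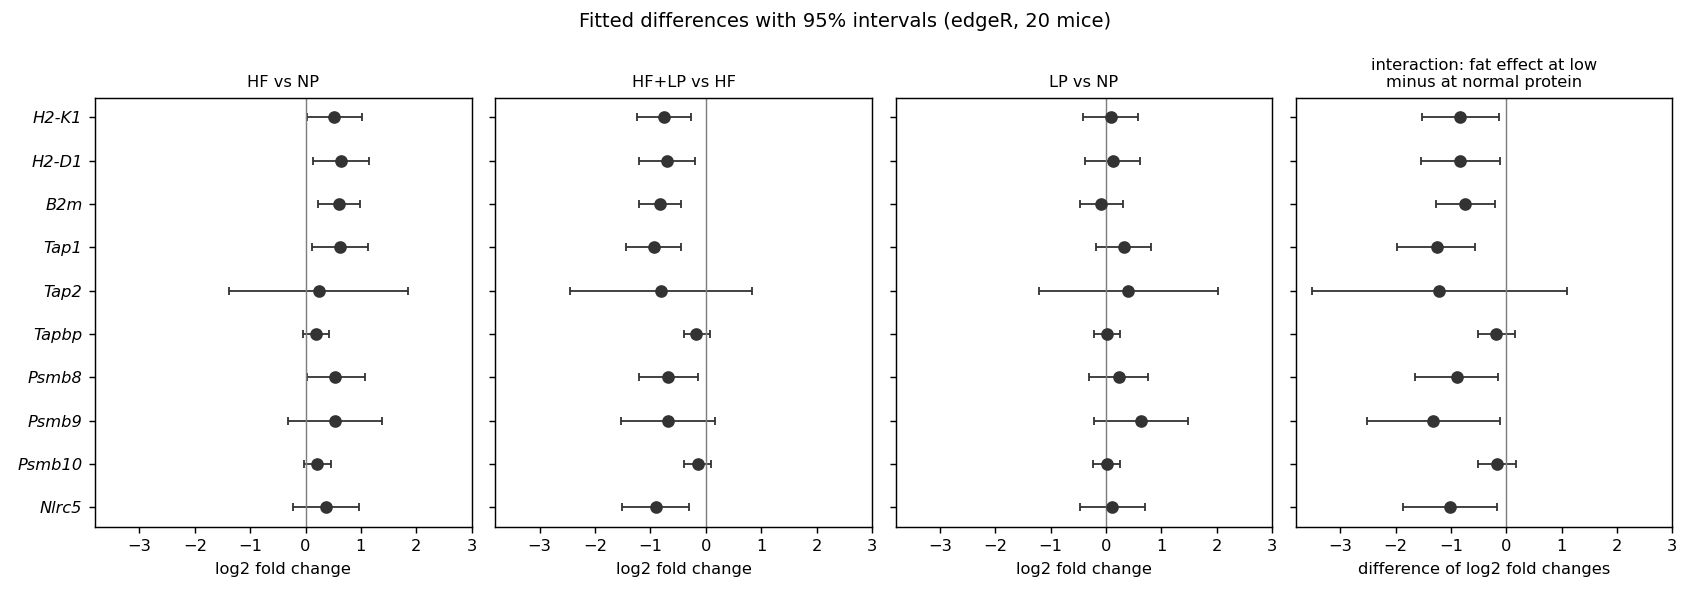
Fitted log2 fold change of each gene (x axis) for HF against NP, HF+LP against HF, LP against NP, and the interaction, the fat effect at low protein minus that at normal protein. Points are edgeR estimates over 20 mice and bars 95% intervals. All 10 estimates are above 0 for HF against NP and below 0 for HF+LP against HF, and the Tap2 intervals are the widest.

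Lowering protein during the high-fat diet gave estimates in the other direction. All 10 genes had lower estimates in HF+LP than in HF, with a median log2 fold change of −0.73 against 0.02 for all genes, of which 53.7% had a positive estimate. None of the 10 was called by edgeR, which called 0% of all genes in this comparison. At an unadjusted p under 0.05, 6 of the 10 were lower (H2-K1, H2-D1, B2m, Tap1, Psmb8, Nlrc5), against 2.43% of all genes (4.84% in either direction). B2m ranked 15 among 13991 genes by p, with a log2 fold change of −0.83 (SE 0.18, adjusted p = 0.191). DESeq2 placed the same number below an unadjusted p of 0.05 (against 2.77% of all genes, lower) and called 1 of the 10, B2m, with −0.85 and an adjusted p of 0.00535, where it called 16 of the 11867 genes it tested, 15 of them (0.126%) lower. The adjusted p of B2m ranged from 0.00535 to 0.608 over all alternatives.

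Tap1 ranked 45, with a log2 fold change of −0.94 (SE 0.24, adjusted p = 0.251), which is a ratio of 0.52. The estimates were −0.90 (SE 0.29) for Nlrc5, −0.76 (SE 0.24) for H2-K1, −0.71 (SE 0.24) for H2-D1, and −0.68 (SE 0.25) for Psmb8. Psmb9 (−0.69) and Tap2 (−0.81) had estimates of similar size, but intervals that included 0. Tapbp (−0.17) and Psmb10 (−0.15) had the smallest estimates of the 10 here. With any single mouse left out, 6 or 7 of the 10 genes had an unadjusted p under 0.05. Without HF mouse 1 it was 7, the median was −0.87, and none was called, with B2m at −0.95 (adjusted p = 0.0237). Without HF mouse 3 it was also 7, the median was −0.71, and none was called, with B2m at −0.85 (adjusted p = 0.183). The cell marker values given above apply here too. Both comparisons use the HF mice, so a high HF value moves them in opposite directions, and they are not independent of each other. HF+LP compared with NP gave 8 lower and 2 higher estimates (median −0.19 against 0), none called and none at an unadjusted p under 0.05 by edgeR or DESeq2, where edgeR called 0.0286% and DESeq2 0.194% of all genes, 8.77% had a p under 0.05, and 50.2% had a positive estimate.

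Low protein without high fat was compared next. In LP against NP, 9 estimates were positive and 1 negative, with a median of 0.11 against 0.02 for all genes, of which 54.6% had a positive estimate. None of the 10 was called by edgeR or DESeq2 (edgeR called 0% and DESeq2 0.019% of all genes) and none had an unadjusted p under 0.05 by either tool, against 7.23% of all genes. Psmb9 had the largest estimate, 0.63 (SE 0.41). Without LP mice 13 and 20 the median was −0.16, and H2-K1 (−0.35), H2-D1 (−0.26), Tap2 (−0.79), Tapbp (−0.01), Psmb8 (−0.18), Psmb9 (−0.11), and Nlrc5 (−0.14) changed sign. For the genes that changed sign, the direction of the LP estimate therefore rested on these mice, in which lymphocyte, atrial, or adipocyte markers were also high. B2m, Tap1, and Psmb10 kept their sign. The part of those cells was not tested.

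In HF+LP against LP, 8 estimates were lower and 2 higher (median −0.34 against −0.03), where 45.8% of all genes had a positive estimate. Without LP mice 13 and 20 the median was 0.04, and H2-K1 (0.11), H2-D1 (0.19), B2m (0.07), Tap2 (0.23), and Psmb8 (0.04) turned positive, while Psmb10 (−0.05) turned negative. With all mice, Tap1 (−0.65, SE 0.24) and Nlrc5 (−0.64, SE 0.29) had an unadjusted p under 0.05 and were lower, against 9.66% of all genes, and none of the 10 was called by edgeR or DESeq2, against 0.1% of all genes by edgeR and, in the lower direction, 0.275% by DESeq2. DESeq2 placed the same 2 genes below an unadjusted p of 0.05, against 9.38% of all genes in that direction. That number was 0 without LP mouse 20, 1 without LP mouse 2, HF+LP mouse 1, or HF+LP mouse 3, and 0 without LP mice 13 and 20 together. With all mice, the 3 adipocyte (median −4.69), 4 T and NK cell (−2.81), 4 B cell (−0.53), and 4 atrial genes tested (−1.48) had lower estimates. Of these, 3, 3, 1, and 0 had an unadjusted p under 0.05. Of 15 macrophage and monocyte genes, 8 were higher and 7 lower, 3 and 1 of them at that limit. Cardiomyocyte, fibroblast, and endothelial genes went both ways. The part of these cells was not tested.

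The interaction asks whether the fat effect differed between the protein levels. All 10 estimates were negative, with a median of −0.87 against −0.01 and 49% of all genes positive, and 7 of the 10 had an unadjusted p under 0.05, against 4.31% of all genes in that direction. DESeq2 placed the same 7 below that limit, against 4.9% of all genes. None was called by edgeR or DESeq2 (each called 0% of all genes). Tap1 had the smallest p, with a difference of log2 fold changes of −1.26 (SE 0.34, adjusted p = 0.614). Without LP mice 13 and 20, the median was −0.47 and the number with an unadjusted p under 0.05 was 1, Tap1 with −1.02. It was 4 without LP mouse 13 alone and 4 without LP mouse 20 alone, 7 without HF mouse 1, and 6 without HF mouse 3. Markers of other cells went along with the interaction. All 15 macrophage and monocyte genes (median −0.51), the 4 T and NK cell genes tested (−3.31), the 4 B cell genes tested (−0.93), the 3 adipocyte genes (−4.61), the 4 atrial genes (−2.75), and the 5 fibroblast genes (−0.24) had negative estimates, with 3, 3, 1, 3, 0, and 0 of them at an unadjusted p under 0.05. All 6 cardiomyocyte genes had positive estimates (0.39), 1 of them at that limit, and the endothelial genes split evenly. These marker estimates are given with all mice only, and LP mice 13 and 20 weigh on them. T and NK cell markers summed to 5421 in LP mouse 20, against 59.9 to 116 in the other LP mice. Adipocyte markers summed to 4368 in LP mouse 13 and 1960 in LP mouse 20, against 66.5 to 112 in the others. The part of these cells in the interaction was not tested.

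Each inducible subunit was then set against the constitutive subunit that it replaces, within each library, so that scaling between libraries has no part in the value. In HF mice 1 to 5 the log2 ratio of Psmb8 to Psmb5 counts was −0.11, 0.79, 0.71, 1.03, and 0.91. In HF+LP mice 1 to 5 it was −0.14, −0.08, −0.04, 0.12, and −0.47, and in NP mice 3, 4, 5, 6, and 8 it was −0.05, −0.03, 0.60, −0.14, and 0.63. In HF, 4 of 5 mice lay above all NP and all HF+LP mice, and mouse 1 lay within both groups. LP mice 2, 5, 13, 15, and 20 had ratios of −0.21, −0.31, 0.91, 0.33, and 1.36, a wider spread than in any other diet. The mean ratio was 0.46 higher in HF than in NP (two-sided exact permutation test, p = 0.0794, adjusted p = 0.238 over 6 ratio tests). In HF+LP it was lower than in HF, with a difference of −0.79 (exact permutation p = 0.0317, adjusted p = 0.19). A comparison of 5 with 5 mice cannot give a p below 0.00794.

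Without HF mouse 1 the differences in this ratio were 0.66 and −0.98. That mouse was the only HF mouse within the other groups, and its atrial markers were high. Leaving it out therefore puts the exact permutation p at 0.0159, the smallest that 4 against 5 mice can give (adjusted p = 0.0476), so this p is no added support. Over all alternatives the adjusted exact permutation p ranged from that value to 0.5 in HF against NP and to 0.381 in HF+LP against HF. Psmb5 itself had log2 fold changes of 0.06 in HF against NP and 0.15 in HF+LP against HF. The ratio of Psmb9 to Psmb6 differed by 0.45 and −0.69 in the same comparisons (adjusted exact permutation p = 0.533 and 0.369), and that of Psmb10 to Psmb7 by 0.30 and 0.02 (0.369 and 0.944). Psmb6 had log2 fold changes of 0.02 and 0.07, and Psmb7 of −0.10 and −0.13. Of the 14 genes of the constitutive core, none was called and none had an unadjusted p under 0.05 in either comparison by edgeR.

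**Figure D4:**
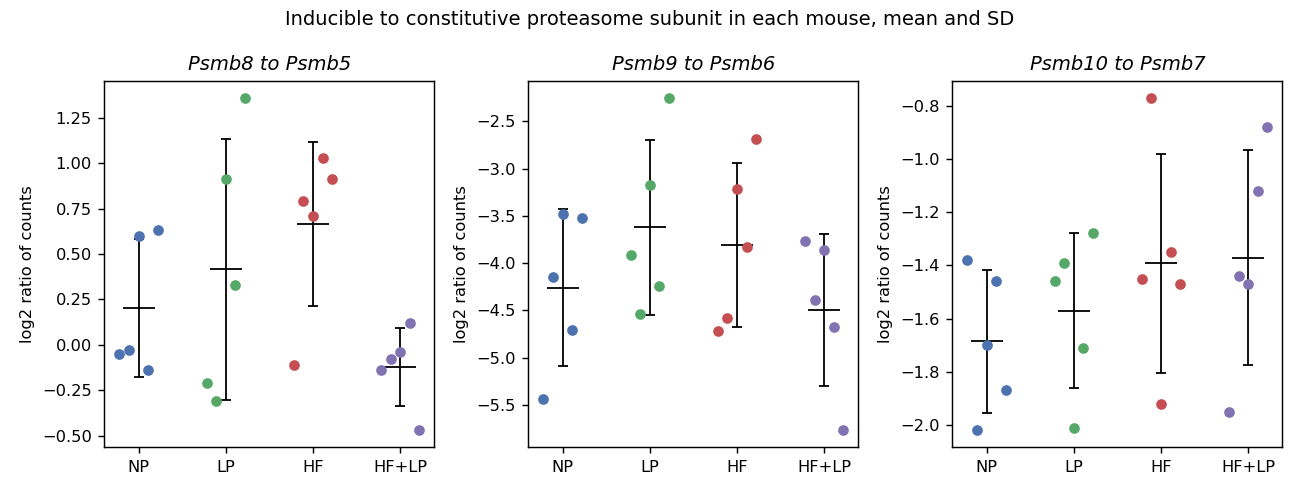
Log2 ratio of counts of each inducible to its constitutive proteasome subunit (y axis) in every mouse, by diet (x axis), with the mean and SD of 5 mice. For Psmb8 to Psmb5, 4 of 5 HF mice lie above all NP and HF+LP mice, and HF mouse 1 lies at −0.11. The panels have separate y axes.

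Mice of one diet also differed from each other, and the 10 genes did not vary together as one group. Correlations of deviations from the diet mean are given as a description over 20 mice, which share libraries and depth with every other gene. H2-K1 and H2-D1 had r = 0.92, B2m and Psmb8 had r = 0.86, and Tap1 and Nlrc5 had r = 0.81. Tap2 and Psmb9 had r = 0.92, whereas Tap2 and its transporter partner Tap1 had r = −0.01. Tap1 and Psmb9, whose promoter windows overlap, had r = 0.28. Tap2 varied against Tapbp (r = −0.50) and Psmb10 (r = −0.54).

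**Figure D5:**
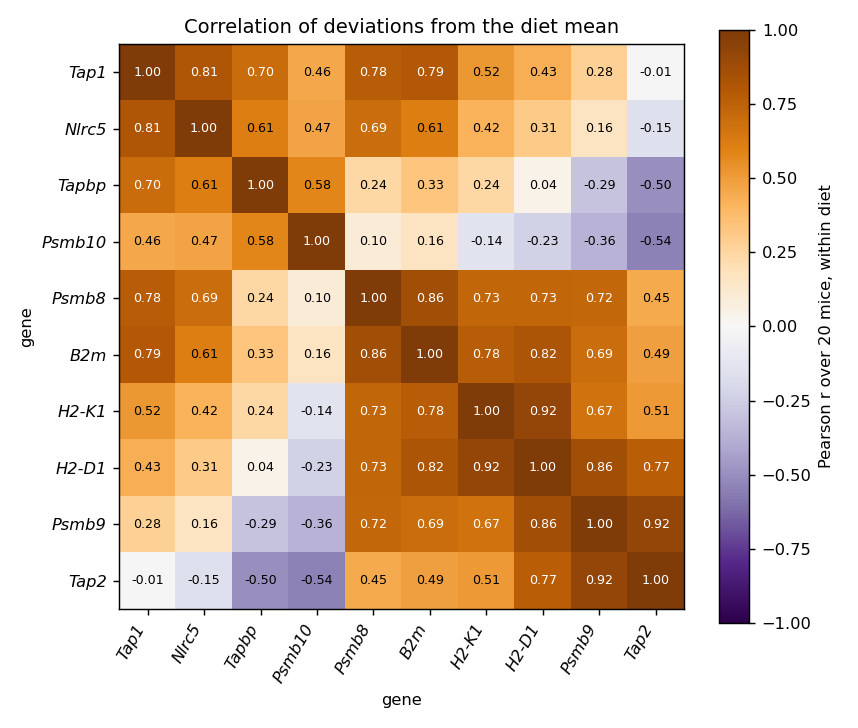
Pearson r between the 10 genes (both axes) of deviations from the diet mean in log2 CPM over 20 mice, with color from −1 to 1. H2-K1 with H2-D1 and Tap2 with Psmb9 have the highest r (0.92 each), and Tap2 with Psmb10 the lowest (−0.54).

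Tap2 followed a pattern of variation that many genes share. Of 10153 other genes with a mean normalized count over 50, 550 had r of 0.8 or more with Tap2 within diets, led by Rnf130, Gpkow, and Snhg6 (0.98 each), and 59 had r of −0.8 or less. The first principal component of the within-diet deviations held 36.3% of their variance, and Tap2 had r = 0.76 with it (0.89 without LP mouse 13). The corresponding r was 0.75 for H2-D1, 0.68 for Psmb9, and 0.67 for H2-K1, but 0.34 for B2m, −0.09 for Tap1, and −0.64 for Psmb10. The component had r = 0.45 with the log10 total count of the mice, and what sets it was not tested.

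The extreme mouse of a diet differed between genes. LP mouse 5 was the lowest LP mouse for 9 of them, and LP mouse 20 the highest for 5. The label of LP mouse 5 reads sample 2 of that animal, without saying what this means, and no other library of it was analysed here. Without it, the median over the 10 genes was 0.26 in LP against NP, −0.48 in HF+LP against LP, and −1.01 in the interaction, with 0, 3, and 7 genes at an unadjusted p under 0.05. The share of all genes at that limit is not given for this fit. HF mouse 1 was the lowest HF mouse for 6, while HF+LP mouse 5 was the lowest HF+LP mouse for 6 and the highest for 2. HF mouse 2 was the highest HF mouse for 4 and the lowest for 1, and HF+LP mouse 1 was the highest for 2 and the lowest for 2.

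Other genes of class I processing, loading, and control were examined as a list of 33, all of which were tested. In HF against NP none was called, 3 were higher and 1 lower at an unadjusted p under 0.05, and the median log2 fold change was 0.09. Of all genes, 5.17% were higher and 7.91% lower at that limit, so the list stood near the background. The interferon signaling factor Irf9 had 0.82 (SE 0.21, adjusted p = 0.0502), Ube2l6, an ISG15-conjugating enzyme, had 0.98 (SE 0.36, adjusted p = 0.223), and the interferon receptor chain Ifnar2 had 0.35 (SE 0.11, adjusted p = 0.112). The CCAAT-binding subunit Nfyc had −0.40 (SE 0.14, adjusted p = 0.174). In HF+LP against HF none was called, 3 were lower at that limit (2.43% of all genes), and the median was −0.05. Among them were Irf9 (−0.94, SE 0.21, adjusted p = 0.178) and its partner Stat2 (−0.84, SE 0.24, adjusted p = 0.36). Irf1, an interferon-induced activator of class I genes, had 0.15 (SE 0.20) and −0.18 (SE 0.20), with intervals that included 0.

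Over the 20 mice, the genes most like the mean of the 10 among 10145 others were H2-Q7 (r = 0.90), H2-Q4 (0.88), Trim12c (0.87), the interferon-induced Ifit1 (0.86), and H2-T22 (0.85). Within diets their r was 0.88, 0.91, 0.87, 0.91, and 0.83. H2-Q7, H2-Q4, and H2-T22 are nonclassical class I genes close in sequence to H2-K1 and H2-D1, so shared reads may enter these values. H2-Q7 had a log2 fold change of 0.64 (SE 0.27) in HF against NP and −1.10 (SE 0.27) in HF+LP against HF. Of the interferon-stimulated genes, Irf7 had 1.88 (SE 0.45, adjusted p = 0.0397) and −2.25 (SE 0.46, adjusted p = 0.134), and Isg15 had 1.34 (SE 0.40) and −1.72 (SE 0.40), estimates larger than those of any of the 10 genes in the same comparisons, without a test of that difference.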

How the data were processed

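Left ventricular RNA of 20 mice was sequenced by the authors with QuantSeq 3′ libraries (75 bp reads, Illumina) and aligned with BlueBee. The authors deposited raw counts, 1 column per mouse and 1 row per Ensembl gene, and the lowest total of a listed gene is 60. The submitters' processing notes name GRCm38 and DESeq2 1.22.2, while the counting program and its strand setting are not given in the sources used here. Symbols were found for 15917 of 15956 genes. Mice were grouped by diet label and named by animal number. Same-numbered mice of different diets are different animals.

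Counts were filtered with filterByExpr (13991 genes kept), scaled by TMM, and fitted for all 4 diets together with edgeR 4.0.16 in R 4.3.3, with Benjamini-Hochberg adjustment over all 13991 genes. Calls followed the study's limits of 0.01 for the adjusted p and 50 for the mean normalized count. Normalized counts are counts divided by TMM-scaled library size, at the mean library. Log2 CPM used a prior count of 2. Standard errors were derived from the F statistic. Subunit ratios were tested by exact permutation, two-sided. The members, gene lists, and tests were chosen with earlier results of these data known. Named genes are the 10 members, Psmb5, Psmb6, and Psmb7, Irf1 with up to 5 others of the pathway list by p in each comparison, the 5 genes most like the members' mean, and Irf7 and Isg15. Not every gene of the pathway list is reported here. The genes named for their correlation with Tap2 were chosen after their values were seen. On counts simulated for HF against NP, with 200 of 13991 genes changed by a log2 fold change of 1.5, edgeR recovered 83.5% and DESeq2 1.42.0 recovered 86.5%. The largest estimate of the 10 genes in HF against NP was 0.64, and the simulation drew each gene independently. These rates therefore do not say how often differences as small as those of the 10 genes would be called. P-values rest on the spread between mice. No library pair within a diet agreed within sampling noise (lowest chi-square per degree of freedom 14.5). The alternatives tried were DESeq2, RLE size factors, an adjusted p under 0.05, keeping genes with low counts, no minimum mean, a covariate for the library-name number, a block for the animal number, only the 2 diets compared, a pseudocount of 2 and permutation within the library-name number for ratios, each mouse left out, and, added after seeing the data, a residual component as covariate and leaving out LP mice 13 and 20.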

Additional observations from a re-analysis of the deposited data

Results flagged for a closer look

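In groups of 5 mice, a mouse was singled out where its gap to the nearest other mouse took more than 0.71 of the group's range. Of 52 groups examined, 2 had such a mouse, and chance alone singles out about 1 group in 20. H2-D1 in HF+LP mouse 5 was the lowest of its group, with 1567 normalized counts against 2577 in the next mouse. Without this mouse, the log2 fold change of H2-D1 was −0.58 in HF+LP against HF and 0.06 in HF+LP against NP. The log2 ratio of Psmb8 to Psmb5 in HF mouse 1 was −0.11, against 0.71 in the next HF mouse. The same mouse was the lowest HF mouse for 6 of the 10 genes and had the highest atrial marker sum in HF, 204100 normalized counts, against 73800 in HF mouse 3 and 1885 to 3246 in the others.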

How the results depend on the processing

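Of all alternatives run, DESeq2 was the only one that called any of the 10 genes: it called 1, B2m, in HF+LP against HF. Over all genes, DESeq2 called 158 genes in HF against NP where edgeR called 37, and the count was 7 with the animal number as a block. DESeq2 called 16 genes in HF+LP against HF, where edgeR called 0. Of the estimates under the alternatives, 4 in HF against NP and 0 in HF+LP against HF changed sign, against 28 in LP against NP, 9 in HF+LP against NP, 20 in HF+LP against LP, and 1 in the interaction. The cause was not tested. Raw counts per mouse were low for Nlrc5 (16 to 79) and in some mice for Tap2 (10 to 827).

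For the alternatives in this section, numbers of genes at an unadjusted p under 0.05 are given without the share of all genes at that limit. With only the 2 diets compared in the model, 1 gene had an unadjusted p under 0.05 in HF+LP against NP and 1 in HF+LP against LP. With a mouse left out, the number of genes at that limit ranged from 2 to 7 in HF against NP, 0 to 3 in HF+LP against LP, and 4 to 7 in the interaction. The log2 ratio of Psmb8 to Psmb5 ranged from 0.37 to 0.66 in HF against NP and from −0.98 to −0.70 in HF+LP against HF. The ratio of Psmb10 to Psmb7 in HF+LP against HF ranged from −0.11 to 0.18.

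With both LP mice 13 and 20 left out, 0 genes in HF+LP against LP and 1 in the interaction had an unadjusted p under 0.05. LP against NP was then −0.35 for H2-K1, −0.26 for H2-D1, −0.79 for Tap2, −0.01 for Tapbp, −0.18 for Psmb8, −0.11 for Psmb9, and −0.14 for Nlrc5. HF+LP against LP was 0.11 for H2-K1, 0.19 for H2-D1, 0.07 for B2m, 0.23 for Tap2, 0.04 for Psmb8, and −0.05 for Psmb10. With the residual component as covariate, which averages out within each diet by construction and so cannot stand for a difference between diets, Tap2 was −0.01 in HF against NP and H2-K1 was 0.00 in LP against NP.

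With a mouse left out, the estimates that changed sign ranged as follows. In HF against NP, Tap2 ranged from −0.19 to 0.87. In LP against NP, H2-K1 ranged from −0.18 to 0.22, H2-D1 from −0.10 to 0.26, B2m from −0.17 to 0.02, Tapbp from −0.04 to 0.07, Psmb8 from −0.10 to 0.37, Psmb10 from −0.04 to 0.07, and Nlrc5 from −0.12 to 0.27. In HF+LP against NP, H2-D1 ranged from −0.15 to 0.06, Tap2 from −1.20 to 0.06, Tapbp from −0.01 to 0.07, and Psmb9 from −0.35 to 0.03. In HF+LP against LP, H2-D1 ranged from −0.33 to 0.03, Tapbp from −0.04 to 0.07, and Psmb10 from −0.02 to 0.10.

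The animal numbers do not pair the mice: correlations of same-numbered HF+LP and HF mice ran from −0.55 to 0.47. The fit with the animal number as a block held 15 mice, 2 of them LP. In this replicate block fit the number with an unadjusted p under 0.05 was 1 in HF+LP against NP, 0 in HF+LP against LP, and 0 in the interaction. LP against NP was −0.39 for H2-K1, −0.27 for H2-D1, −0.42 for Tap1, −0.05 for Tap2, −0.28 for Tapbp, −0.36 for Psmb8, and −0.79 for Nlrc5. HF+LP against NP was 0.06 for H2-D1, −0.03 for Tapbp, and 0.03 for Psmb9. HF+LP against LP was 0.27 for H2-K1, 0.33 for H2-D1, 0.37 for B2m, 0.08 for Tap1, 0.33 for Psmb8, 0.00 for Psmb9, and 0.12 for Nlrc5. The interaction was 0.12 for Tapbp.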
